A study of Mus musculus with 24 samples.

Results

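The transcripts described here are those of 9 mouse genes, the guanylate-binding protein genes Gbp2, Gbp2b, Gbp3, Gbp5 and Gbp7 and the tripartite-motif genes Trim30a, Trim30b, Trim30c and Trim30d. They were taken by symbol from the 2 results tables of the study, which together list 20625 genes. The control table listed 8 of the 9 and the paused table listed 7, since Trim30b was in neither and Gbp5 was in the control table alone. The families were selected on log2 changes in both tables, so these changes are given as a description, without a test.

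Poly(A) RNA was sequenced from E14 mouse embryonic stem cells, a line from the early embryo kept here on gelatin in medium with serum and leukaemia inhibitory factor (LIF). The 24 libraries form 6 groups of 4. The genotypes are wild type (WT) and the knockout lines Smad2_KO1 and Smad2_KO2, each kept in control medium or treated with the mTOR inhibitor INK128 at 200 nM for 12 h, which the study calls paused. The SMAD2 protein moves into the nucleus and alters transcription when Nodal or activin binds its receptor. The labels do not say how the gene was deleted, whether a line is 1 clone, or whether the 4 replicates are separate cultures, so p-values measure the spread between samples that may be technical. The question of each comparison was what the loss of Smad2 changed in that condition.

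Each table gives, per gene, a mean normalized read count over libraries, a log2 change, its standard error (SE) and an adjusted p. No value of a single library was analysed here, so the spread between libraries enters through the SE alone, and the depth per library is unknown. The tables do not say whether both knockout lines entered a comparison. Changes are read as knockout over WT because Smad2 itself had a negative change in both of the authors' deposited tables (-0.35, SE 0.07, and -0.63, SE 0.06). Read this way, Smad2 RNA was at 78.6% of WT in control and 64.6% in paused cells (adjusted p 6.5e-06 and 4.1e-26), or, with the ratio the other way up, 1.27-fold and 1.55-fold higher; the control call of Smad2 was lost under 3 of the 6 alternatives tried. Lefty1 and Lefty2, known targets of Nodal signalling through SMAD2, were negative too, at -2.52 (SE 0.14) and -2.89 (SE 0.12) in the authors' deposited table of control cells and -3.34 (SE 0.21) and -3.13 (SE 0.12) in that of paused cells. The tables do not name the numerator, and were the ratio the other way up, every direction given here would be reversed. The stem cell markers Pou5f1, Nanog, Sox2, Zfp42, Dppa5a and Esrrb were all listed, with means from 18775 to 51710 normalized counts in the authors' deposited table of control cells. Nanog was called higher there (0.32, adjusted p 6.39e-07) and in paused cells (0.18, adjusted p 0.0358), Pou5f1 was called lower in control cells (-0.18, adjusted p 0.00630), and the others were not called, per the authors' deposited tables. In bulk RNA, fewer cells that express a gene and less of its RNA per cell cannot be told apart.

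Guanylate-binding proteins are large GTPases that interferon, above all interferon gamma, induces, in part through the transcription factor IRF1. They gather on the vacuoles of intracellular microbes and on bacterial surfaces and help to break them open and to start inflammasome signalling. The Trim30 genes code for relatives of TRIM proteins with a RING domain, a mouse group that sits beside other antiviral Trim genes; Trim30a restrains signalling to NF-kB. Pluripotent stem cells are known for a weak interferon response, with low levels of many genes that interferon induces in other cells.

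The Gbp members lie side by side on the plus strand of chromosome 3, in a stretch of 141 kb in the GRCm38.p6 annotation of RefSeq. The Trim30 members lie on the minus strand of chromosome 7, within 152 kb. The bases before a RefSeq transcript start of 7 members, 250 at most, are shown because they can be set against the changes: 4 Gbp genes with a steep fall, Gbp5 without one, and Trim30c with and Trim30a without a fall in control cells. They span chr3:142530086-142530335 for Gbp7, chr3:142559794-142560015 for Gbp3, chr3:142594597-142594815 for Gbp2b, chr3:142620413-142620662 for Gbp2 and chr3:142496684-142496933 for Gbp5, all on the plus strand. Those of Trim30a and Trim30c span chr7:104465194-104465443 and chr7:104400853-104401028 on the minus strand. For Gbp2b, Gbp3 and Trim30c that transcript starts 31, 28 and 74 bases inside the annotated gene, and these last bases are left out, which leaves 219, 222 and 176. Each is written 5′ to 3′ on the gene's strand, and capitals mark matches on either strand to the core of the interferon response element, searched as GAAA, any 2 bases, GAAA.
Gbp7: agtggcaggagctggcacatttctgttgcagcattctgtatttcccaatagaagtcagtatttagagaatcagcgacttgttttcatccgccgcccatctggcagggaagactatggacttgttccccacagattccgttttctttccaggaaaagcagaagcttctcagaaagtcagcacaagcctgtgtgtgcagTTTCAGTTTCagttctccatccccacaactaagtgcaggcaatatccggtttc
Gbp3: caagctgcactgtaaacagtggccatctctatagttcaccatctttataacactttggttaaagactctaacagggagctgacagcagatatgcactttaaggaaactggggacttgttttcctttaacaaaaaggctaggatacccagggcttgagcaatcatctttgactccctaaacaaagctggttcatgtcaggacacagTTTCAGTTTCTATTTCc
Gbp2b: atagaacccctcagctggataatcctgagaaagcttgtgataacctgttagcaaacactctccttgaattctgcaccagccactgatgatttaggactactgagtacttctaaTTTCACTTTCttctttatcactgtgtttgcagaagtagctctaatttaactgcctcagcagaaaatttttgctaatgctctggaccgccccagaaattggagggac
Gbp2: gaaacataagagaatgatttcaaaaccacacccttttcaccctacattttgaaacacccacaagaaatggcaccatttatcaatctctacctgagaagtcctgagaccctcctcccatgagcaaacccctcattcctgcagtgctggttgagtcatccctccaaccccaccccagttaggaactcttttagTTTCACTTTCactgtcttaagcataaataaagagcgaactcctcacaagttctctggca
Gbp5: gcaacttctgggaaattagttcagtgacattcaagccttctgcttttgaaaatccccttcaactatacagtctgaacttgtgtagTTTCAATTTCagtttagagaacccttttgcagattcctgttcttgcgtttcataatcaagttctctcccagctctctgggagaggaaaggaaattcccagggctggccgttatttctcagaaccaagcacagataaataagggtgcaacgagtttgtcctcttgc
Trim30a: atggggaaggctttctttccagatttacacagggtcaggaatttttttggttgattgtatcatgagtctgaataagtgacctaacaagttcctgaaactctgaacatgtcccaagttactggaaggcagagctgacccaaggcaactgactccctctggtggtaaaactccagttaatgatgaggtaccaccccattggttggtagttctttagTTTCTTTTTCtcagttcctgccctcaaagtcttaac
Trim30c: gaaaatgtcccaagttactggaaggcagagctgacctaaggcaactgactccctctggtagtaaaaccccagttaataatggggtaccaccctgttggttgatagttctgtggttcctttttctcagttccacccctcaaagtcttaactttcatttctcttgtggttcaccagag

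A match to this interferon response core was found in the 300-base window around that transcript start (250 bases before it and 50 after) of 7 of the 9 members, and in 3.44% of all 32851 RefSeq windows of that length. All 5 Gbp members held it, as did Trim30a and Trim30d; the windows of Trim30b and Trim30c did not. The matches read on the gene's strand were TTTCACTTTC in Gbp2 and Gbp2b, TTTCAGTTTC in Gbp7 and TTTCAATTTC in Gbp5. Gbp3 had TTTCAGTTTC and TTTCTATTTC, which overlap. Trim30a and Trim30d shared the letters TTTCTTTTTC. In Gbp2 the match lay 59 to 50 bases before the start, in Gbp7 53 to 44, and in Gbp2b 137 to 128 bases before it. The interferon response core was also found in the immunity-related GTPase genes Irgm1, Irgm2, Igtp, Tgtp1 and Tgtp2, but not in Irgq. Among other antiviral Trim genes it was found in Trim5, Trim12a, Trim12c, Trim21 and Trim34a, and not in the others searched. Genes of the other lists named below were searched too, where they had a window. The core was found in Ifih1, Cxcl10 and Ifit1, which fell, and in Oas1a and Stat2, which rose. It was not found in Psmb8, Oasl2, Irf1, Ifngr1, Ifngr2, Ifnar1 or Aim2, which fell, nor in Irf7, which rose. The core is thus not particular to the members. The core of a STAT site, TTCNNNGAA, was found in Gbp5, Gbp7 and Trim30c (there in the bases left out above), 3 of 9 members against 8.30% of all windows. CAGAC, the core of a Smad site, was found on either strand in 5 of 9 members (Gbp3, Gbp5, Trim30a, Trim30b and Trim30d) against 49.6% of all windows. Gbp3 and Trim30a have 2 annotated starts each and were counted if either window matched. In Gbp3 CAGAC lay before the second start, outside the sequence shown. With the first start of each gene alone, as planned, 4 of 9 members held CAGAC, without Gbp3. Members of a family share sequence by descent, so their windows are not independent. A match describes letters and is not a binding site.

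In control cells, 5 of the 8 listed members were called lower in the knockout at an adjusted p under 0.05, namely Gbp2, Gbp2b, Gbp3, Gbp7 and Trim30c, and 0 were called higher. Over all 19778 genes with a p in the control table, 21.9% were called lower and 19.5% higher. In paused cells 4 of 7 were called lower, the same Gbp genes without Trim30c, and 0 higher, against 22.0% and 20.5% of 19979 genes. Since these contrasts chose the members, the counts are given beside the background and nothing is read from them. The same shares of all genes are the background for the counts of neighbours and related lists below.

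Gbp2 codes for a guanylate-binding protein that gathers on the vacuole of Toxoplasma. Its mean was 412 normalized counts in the authors' deposited table of control cells, with a change of -4.49 (SE 0.40), which puts the knockout at 4.46% of WT (3.37% to 5.90% at 1 SE either way). In the authors' deposited table of paused cells the mean was 496 and the change -5.13 (SE 0.47), or 2.85% of WT (2.06% to 3.96%). Among all listed genes these were the 10th and the 4th lowest changes, so Gbp2 stood near the low end of both tables. With the ratio the other way up, these would be rises of 22.4-fold and 35.0-fold, those of Gbp2b below 25.1-fold and 32.8-fold, those of Gbp3 11.1-fold and 21.8-fold, those of Gbp7 8.05-fold and 15.0-fold, and the control value of Trim30c 398-fold.

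Gbp2b, formerly called Gbp1, adjoins Gbp2 on the chromosome. Its mean was 390 normalized counts with a change of -4.65 (SE 0.41) in the authors' deposited table of control cells, or 3.98% of WT. The authors' deposited table of paused cells gave a mean of 487 and a change of -5.04 (SE 0.45), or 3.05% of WT. The changes of Gbp2b and Gbp2 differed by -0.16 in control cells (SE 0.58, taking the estimates as independent) and by 0.09 in paused cells (SE 0.66). These SEs are too large to tell whether the genes fell to the same degree.

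Gbp3 was less abundant, at 68.6 normalized counts on average and a change of -3.47 (SE 0.35) in the authors' deposited table of control cells, or 9.04% of WT. The authors' deposited table of paused cells gave a mean of 59.8 and a change of -4.45 (SE 0.56), or 4.59% of WT. Gbp7, which supports oxidative defence against bacteria in macrophages, had a mean of 30.8 and a change of -3.01 (SE 0.37) in the authors' deposited table of control cells, or 12.4% of WT. In the authors' deposited table of paused cells its mean was 40.9 and its change -3.91 (SE 0.42), or 6.67% of WT. Both genes thus had steep falls in both tables, from means far under those of Gbp2 and Gbp2b. As a description, the control change of Gbp7 minus that of Gbp2 was 1.48 (SE 0.55), and that of Gbp3 minus that of Gbp2 was 1.02 (SE 0.54). The same differences of the paused changes were 1.23 (SE 0.63) and 0.68 (SE 0.73).

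Gbp5, known for its part in assembly of the NLRP3 inflammasome, was the Gbp member without a fall. It had a mean of 6.80 normalized counts and a change of 0.05 (SE 0.50) in the authors' deposited table of control cells, and was not listed for paused cells. At that count the knockout level could lie between 73.5% and 146% of WT at 1 SE either way. Gbp5 is the outermost gene of the cluster, next to Gbp7, and its window holds the same interferon core as the genes that fell.

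**Figure D1:**
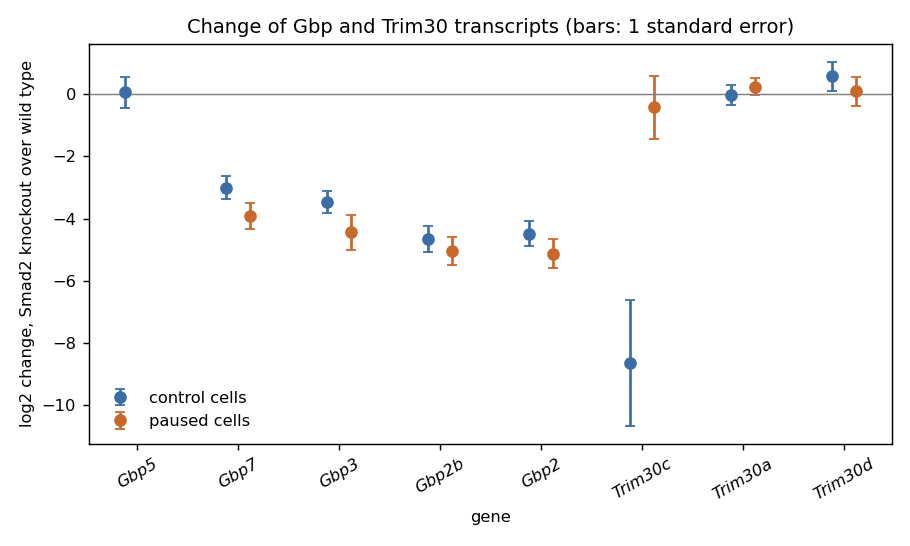
Log2 change of each listed member, Smad2 knockout over WT (y axis), by gene in chromosomal order (x axis), in control cells (blue) and paused cells (orange); bars are 1 SE. Gbp7, Gbp3, Gbp2b and Gbp2 lie between -3.01 and -5.13 in both conditions, Gbp5, Trim30a and Trim30d lie near 0, and Trim30c is at -8.64 in control cells and -0.43 in paused cells.

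Trim30c had the lowest change of all 19780 genes in the authors' deposited table of control cells, -8.64, with an SE of 2.02 and a mean of 1135 normalized counts. That puts the knockout at 0.251% of WT (0.0622% to 1.02% at 1 SE either way). The SE was also the largest of that table, where the next largest was 1.36 and the median of the 200 genes nearest in mean was 0.0674. In the authors' deposited table of paused cells Trim30c had a mean of 3.19, the lowest of all 19979 genes there (the next was 4.04), and a change of -0.43 (SE 1.01), which was not called. The transcript was thus abundant in the mean of the control libraries and at the bottom of the table in the mean of the paused ones. Read as knockout over WT, the control change places nearly all of these counts in the WT libraries. Which of the WT libraries carried them cannot be read from a mean, and the part of single libraries in this value was not tested.

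The other Trim30 genes were low in both conditions. Trim30a had means of 13.7 and 25.6 normalized counts and changes of -0.03 (SE 0.33) and 0.24 (SE 0.27) in the authors' deposited tables of control and paused cells. For Trim30d the authors' deposited tables gave means of 8.12 and 7.39 and changes of 0.57 (SE 0.46) and 0.09 (SE 0.47). Neither gene was called in either table. Their SEs of 0.27 to 0.47 exceeded the change itself in 3 of the 4 values, so small changes were not detectable at these counts.

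**Figure D2:**
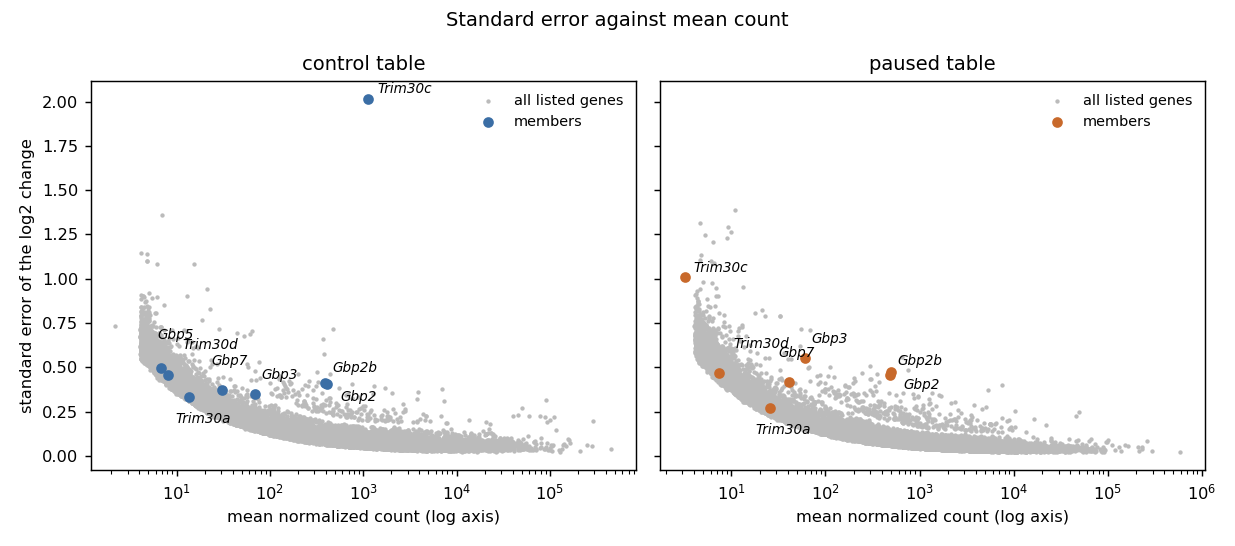
SE of the log2 change (y axis) against the mean normalized count (x axis, log scale) for all listed genes (grey) and the members (coloured), in the control table (left) and the paused table (right). Trim30c stands alone at an SE of 2.02 and a mean of 1135 in the control table, and Gbp2 and Gbp2b lie above the bulk of genes of their level in both.

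The SEs of the steeply lower Gbp genes were also above those of genes of similar mean. The ratio to the median SE of the 200 genes nearest in mean was 4.33 for Gbp2 and 4.59 for Gbp2b in control cells, 6.13 and 5.84 in paused cells, and 1.48 to 3.00 for Gbp3 and Gbp7. It was 29.9 for Trim30c in control cells. For Gbp5, Trim30a and Trim30d it lay between 0.898 and 0.994. The match is on a mean pooled over genotypes, and the knockout level of a gene that falls steeply lies far under it. SEs are larger at lower counts: in control cells the median of the nearest genes was 0.0933 around Gbp2 and 0.183 around Gbp3. What part of a high ratio reflects spread between libraries was not tested.

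Levels can be compared between genes only per length, for which the mean normalized count was divided by the summed exon length of each gene in GENCODE M21. That mean pools libraries of all genotypes in the comparison, and the members' changes differ, so an order or ratio of these levels need not hold within WT or within the knockout. On that scale Gbp2 had 164 counts per kb in control cells and 197 in paused cells, 1.19 and 1.14 times the values of Gbp2b. Gbp2 exceeded Gbp3 7.80-fold in control and 10.8-fold in paused cells, and Gbp7 29.8-fold and 27.0-fold. Trim30c, at 661 counts per kb, was the most abundant member in control cells, 4.04 times Gbp2, and with 1.86 counts per kb the least abundant in paused cells. The remaining members lay between 1.02 counts per kb (Gbp5, control) and 6.24 (Trim30a, paused). No error goes with these levels because the tables give none for a mean, and the 2 tables were normalized separately, so the step of Trim30c between them is a comparison of levels set in separate tables.

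**Figure D3:**
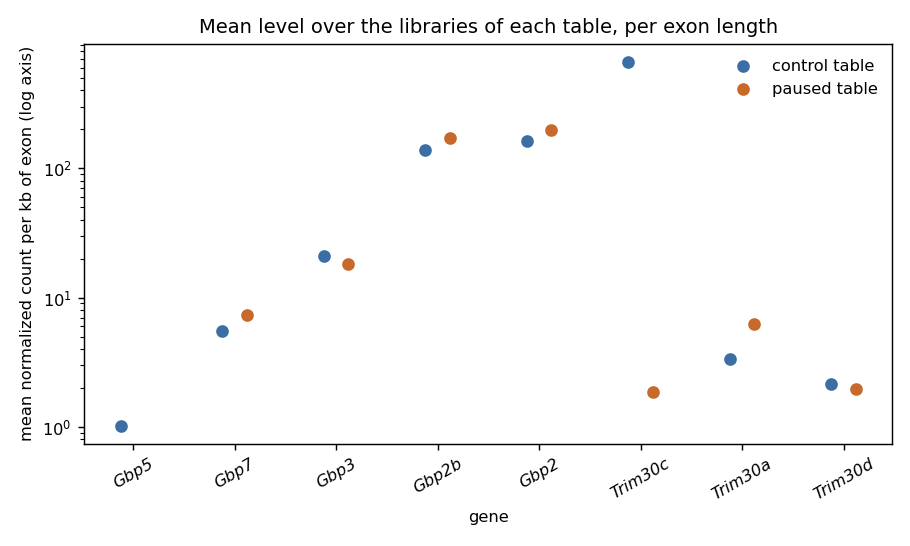
Mean normalized count per kb of exon (y axis, log scale) of each listed member (x axis) in the control (blue) and paused (orange) tables; the points are means over libraries with no error given. Gbp2 and Gbp2b lie between 138 and 197 in both tables, whereas Trim30c lies at 661 for control and 1.86 for paused libraries.

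The paralogs share sequence, which can move reads between them. Over the aligned coding bases in GENCODE M21, Gbp2 and Gbp2b were 83.7% identical and Gbp3 and Gbp7 81.4%, and the other Gbp pairs were 71.3% to 76.4% identical. Trim30a and Trim30d were 90.5% identical, and Trim30c was 84.7% and 85.5% identical to them. Exact matches were counted in windows of 50 bases, since the length of the reads was not used here. Of all 50-base windows of the Gbp2 transcript, 2.07% occurred in a transcript of another gene, Gbp2b in each case; the share was 1.84% for Gbp2b, 4.79% for Gbp3 and 2.45% for Gbp5. For Gbp7 it was 12.8%, of which most was shared with the gene model Gm43802 (10.6%). For Trim30c it was 0.660%, for Trim30a 6.53% and for Trim30d 15.4%. How multiply mapping reads were counted is not given in the sources used here, so the separate values of Trim30a and Trim30d, and those of Gbp7 and Gm43802, are the most uncertain.

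For the 7 members in both tables, the control change was subtracted from the paused change; per the labels, control and paused libraries are different samples. It was -0.64 (SE 0.62) for Gbp2 and -0.38 (SE 0.61) for Gbp2b. For Gbp3 it was -0.98 (SE 0.66), and for Gbp7 -0.90 (SE 0.56). Of the 7 members, 5 had a negative value (these 4 and Trim30d), beside 48.7% of all 19134 genes in both tables. The 95% interval of each of these 4 Gbp values ran from a negative to a positive value. Both changes chose the members, so nothing is read from the direction. The differences were 0.27 (SE 0.43) for Trim30a and -0.48 (SE 0.66) for Trim30d. For Trim30c it was 8.21 (SE 2.25). At the threshold used for all genes 1 of the 7 members, Trim30c, would be called, beside 1.44% of these 19134 genes. Both changes were used to choose the members, so nothing is read from this count.

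Position was then examined, since the genes of each family adjoin each other. Within the Gbp stretch on chromosome 3 the listed genes were the 5 members alone, out of 7 annotated. Of the 5 nearest listed genes on each side, 3 were called lower and 2 higher in control cells, against 21.9% and 19.5% of all genes. In paused cells 4 of these neighbours were called lower and 2 higher, against 22.0% and 20.5% of all genes. Neighbours were taken from genes listed in either table, so not each had a value in both. The closest on the Gbp2 side, 63.0 kb away, was Kyat3, an enzyme of kynurenine metabolism, which was higher by 0.41 (SE 0.07, adjusted p 2.45e-08) in the authors' deposited table of control cells and by 0.31 (SE 0.10, adjusted p 0.0105) in that of paused cells. Beyond it Gtf2b and Pkn2 had changes of -0.03 and -0.03 in the authors' deposited table of control cells and 0.04 and 0.06 in that of paused cells, and were not called. On the Gbp5 side the authors' deposited tables gave Pdlim5 values of -0.16 (SE 0.08, adjusted p 0.0808) in control and -0.22 (SE 0.07, adjusted p 0.0106) in paused cells. The steepest neighbour was the netrin receptor gene Unc5c, 662 kb away with a mean of 13.4 normalized counts, with changes of -2.07 (SE 0.65, adjusted p 0.00523) in the authors' deposited table of control cells and -3.05 (SE 0.52, adjusted p 3.78e-08) in that of paused cells. The other called neighbours were Pdha2, which rose, and Bmpr1b and Lmo4, which fell, in both tables.

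**Figure D4:**
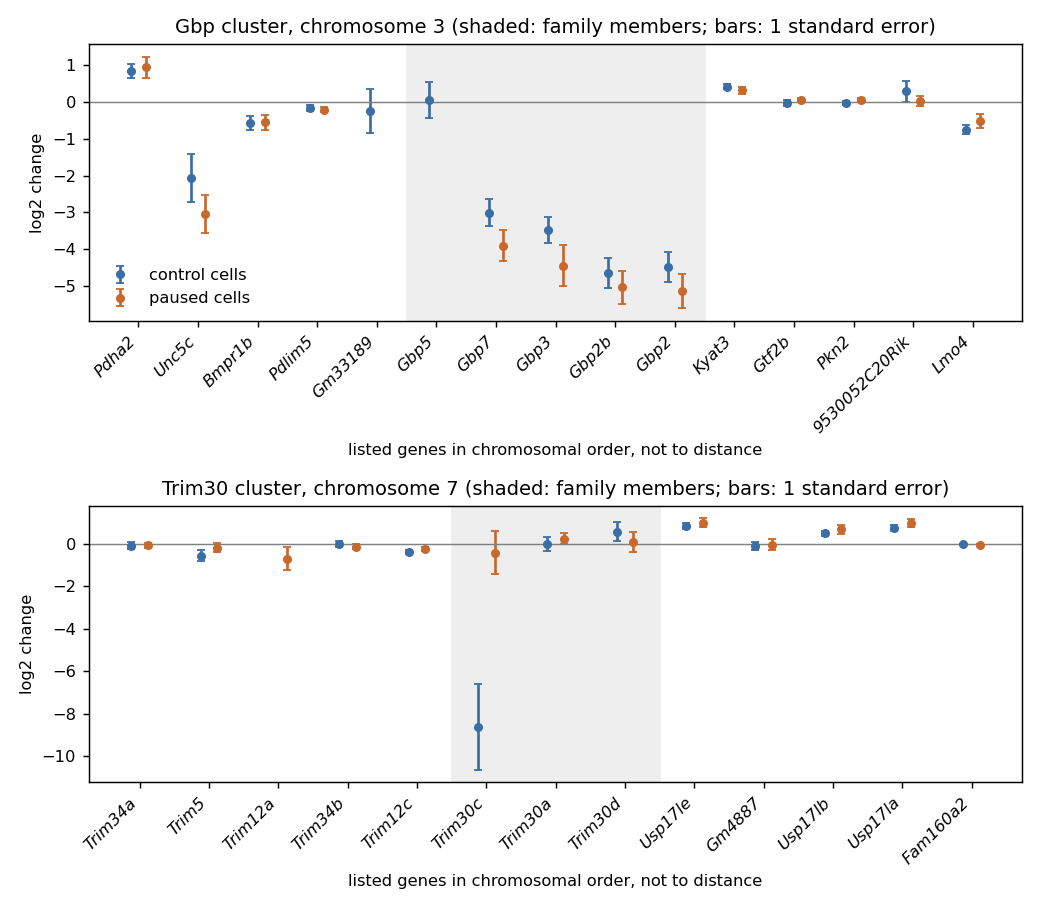
Log2 change, knockout over WT (y axis), of the listed genes in chromosomal order (x axis, not to distance) in and around the Gbp cluster (top) and the Trim30 cluster (bottom), in control (blue) and paused (orange) cells; shading marks the members and bars are 1 SE. The falls of Gbp7, Gbp3, Gbp2b and Gbp2 end at Kyat3, which is higher by 0.41 and 0.31, and Trim30c at -8.64 stands between Trim12c at -0.40 and Trim30a at -0.03 in control cells.

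Around the whole Trim30 cluster, 1 of the 10 nearest listed genes was called lower and 3 higher in each condition, with no control value for Trim12a. Trim12c, the listed gene next to Trim30c, had a mean of 546 normalized counts in the authors' deposited table of control cells. Its changes were -0.40 (SE 0.09, adjusted p 1.25e-04) there and -0.27 (SE 0.10, adjusted p 0.0176) in the authors' deposited table of paused cells. Trim34a, Trim34b and Trim5 were not called in either of the authors' deposited tables, nor was Trim12a, listed for paused cells alone. Per the authors' deposited tables Trim5 had -0.57 (SE 0.25, adjusted p 0.0597) in control cells and Trim12a -0.71 (SE 0.55, adjusted p 0.313) in paused cells. Beyond Trim30d, the deubiquitinase genes Usp17le, Usp17lb and Usp17la were higher by 0.49 to 0.82 in the authors' deposited table of control cells and by 0.68 to 0.99 in that of paused cells, and all 3 were called in both; they are similar copies that can share reads.

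The Gbp genes of the second cluster, on chromosome 5, were listed beside the members. Of 6 genes (Gbp4, Gbp6, Gbp8, Gbp9, Gbp10 and Gbp11), 5 were in the control table, with 1 called lower and 2 higher and a median change of -0.26, against a median of 0.00085 over all genes. In paused cells 1 of the 4 listed was called lower and 0 higher (median -0.67, all genes -0.0016). Gbp4 had changes of -0.86 (SE 0.15, adjusted p 1.89e-07, mean 83.8) in the authors' deposited table of control cells and -1.91 (SE 0.31, adjusted p 7.45e-09, mean 44.0) in that of paused cells. Gbp8 and Gbp9 rose by 1.28 (SE 0.42, adjusted p 0.00773) and 0.51 (SE 0.20, adjusted p 0.0294) in the authors' deposited table of control cells and were not called in that of paused cells, where their changes were 0.76 and -0.12. Gbp6, at means near 5, was not called, with -0.96 (SE 0.66) and -1.21 (SE 0.72) in the authors' deposited tables of control and paused cells, nor was Gbp10 in control cells. The models of Gbp4, Gbp8 and Gbp9 overlap in GENCODE M21 (Gbp4 by 23774 bases with Gbp8) and do not in RefSeq, and the annotation used for counting is not given in the sources used here, so their separate values are uncertain. Of the 10 nearest listed genes around this cluster, 2 were called lower and 4 higher for control cells, and for paused cells 2 and 3.

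Immunity-related GTPases are another GTPase family that interferon gamma induces in mice, and they act with the Gbp proteins on vacuoles. Of 9 genes listed by name, among them Gvin1 of the very large inducible GTPases, which was in neither table, 6 were in each table. In control cells 3 were called lower and 0 higher (median -0.81), and in paused cells 4 and 0 (median -1.28). Irgm1, which regulates the other members and autophagy, had changes of -2.25 (SE 0.19, adjusted p 1.39e-29) in the authors' deposited table of control cells and -3.53 (SE 0.38, adjusted p 4.01e-19) in that of paused cells. Tgtp1 and Tgtp2, near-identical copies whose reads may be split, had changes of -1.51 and -1.59 in the authors' deposited table of control cells and -2.46 and -2.25 in that of paused cells. Irgq was called in paused cells alone, where it fell by 0.31 per the authors' deposited table. Irgm2 and Igtp were not called, and the authors' deposited tables gave them changes of 0.25 and 0.13 in control cells and -0.18 each in paused cells. The family thus held both steep falls and uncalled members, as the Gbp genes did.

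Upstream, 19 genes for interferon receptors, Jak kinases, Stat and Irf factors and their regulators were all listed. In control cells 4 were called lower and 3 higher (median -0.06), and in paused cells 6 and 2 (median -0.04). Irf1, which codes for a transcription factor that interferon gamma induces, had changes of -0.89 (SE 0.08, adjusted p 2.65e-27, mean 1487) in the authors' deposited table of control cells and -0.99 (SE 0.10, adjusted p 1.43e-21, mean 1588) in that of paused cells. The genes of the interferon gamma receptor, Ifngr1 and Ifngr2, had changes of -0.53 and -0.45 in the authors' deposited table of control cells and -0.58 and -0.37 in that of paused cells, and Ifnar1, of the type I receptor, had -0.13 and -0.27; all 3 were called in both. Stat2 rose by 0.25 and 0.16 per the authors' deposited tables, and Irf7, at a mean of 13.2, rose by 1.11 (SE 0.37, adjusted p 0.00972) in control cells.

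Of 24 interferon-stimulated genes outside both families, 18 were in the control table, where 9 were called lower and 3 higher (median -0.46). In paused cells 6 of 17 were called lower and 2 higher (median -0.48). Psmb8, a subunit of the immunoproteasome, had changes of -3.80 (SE 0.43, adjusted p 2.71e-17, mean 70.4) in the authors' deposited table of control cells and -4.84 (SE 0.50, adjusted p 3.19e-20, mean 67.5) in that of paused cells. The RNA sensor gene Ifih1 (-2.40 and -3.29), the chemokine gene Cxcl10 (-1.94 and -3.05) and Oasl2 (-1.59 and -2.34) fell in both of the authors' deposited tables. Ifit1 fell by 1.88 in the authors' deposited table of control cells, at a mean of 5.49, and was not listed for paused cells. Mx1, an antiviral GTPase gene, was listed for paused cells alone, where it rose by 1.26 (SE 0.46, adjusted p 0.0174, mean 9.67) per the authors' deposited table. Oas1a rose by 0.38 and 0.68 in the authors' deposited tables of control and paused cells.

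Among 12 other Trim genes, 2 were called lower and 1 higher in each table (10 listed in control, 11 in paused cells; medians -0.08 and -0.14). These were Trim21, an antibody receptor in the cytosol, with changes of -0.40 and -0.75 in the authors' deposited tables of control and paused cells, Trim12c, given above, and Trim25, which activates the RNA sensor RIG-I and rose by 0.24 and 0.34. Of 8 inflammasome and pyroptosis genes 5 were listed, and the DNA sensor gene Aim2 was the 1 called, with changes of -1.15 (SE 0.12, adjusted p 1.74e-21) and -0.78 (SE 0.10, adjusted p 2.47e-14) in the authors' deposited tables of control and paused cells. The medians of this list were 0.04 and -0.05.

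**Figure D5:**
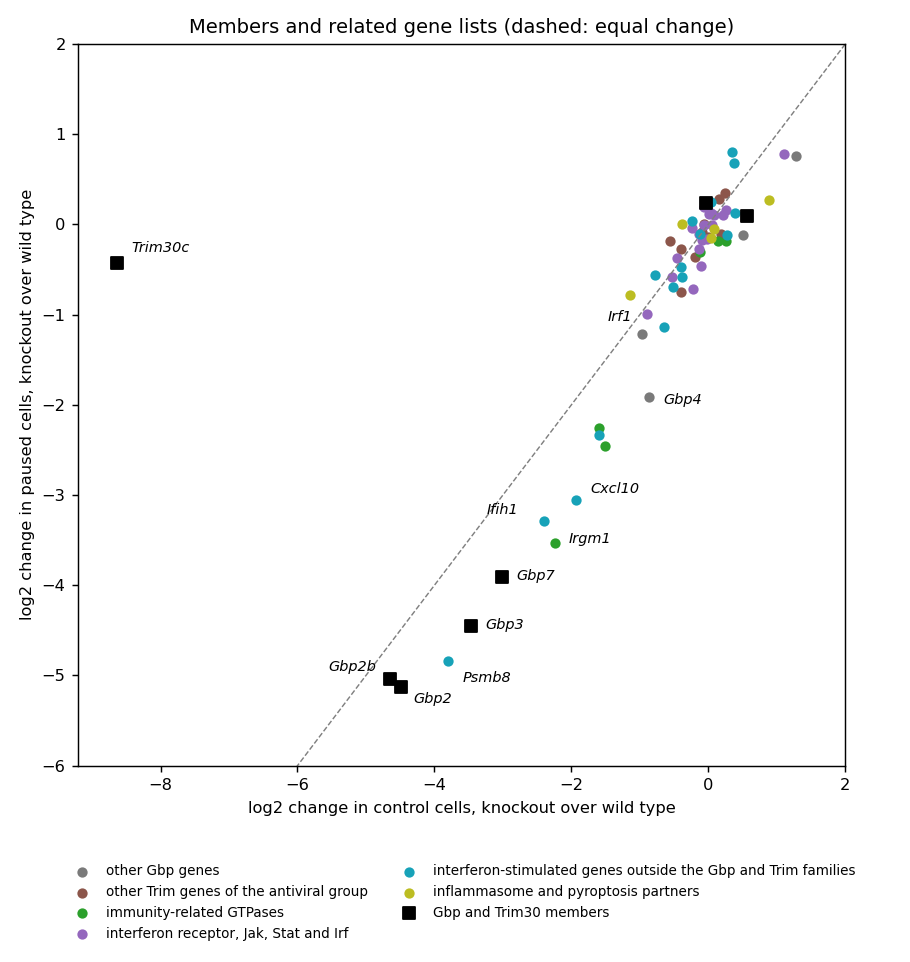
Log2 change in paused cells (y axis) against that in control cells (x axis) for the members (black squares) and the genes of 6 related lists (coloured circles) that are in both tables; the dashed line marks equal change. Gbp2, Gbp2b, Gbp3, Gbp7, Psmb8, Irgm1, Ifih1 and Cxcl10 lie at or below -1.94 in control cells, and Trim30c lies apart at -8.64 and -0.43.

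Of the 60 genes of the related lists in both tables, 0 passed the test of the difference between conditions (normal test with Benjamini-Hochberg adjustment over 19134 genes), and 10 had an unadjusted p under 0.05, against 12.9% of all genes. The differences were -1.05 (SE 0.34, adjusted p 0.0939) for Gbp4 and -1.29 (SE 0.42, adjusted p 0.0945) for Irgm1. For Psmb8 the value was -1.04 (SE 0.66, adjusted p 0.540).

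Markers of other cell types were counted beside 41.4% of all genes called in either direction in control and 42.6% in paused cells. Of 6 fibroblast markers, all listed, 3 fell in each table, namely Col1a1, Col1a2 and Col3a1, while Thy1, Pdgfrb and Postn were not called. Col1a1 had changes of -2.79 and -3.53 in the authors' deposited tables of control and paused cells. Their summed mean was 1009 normalized counts for control and 1015 for paused cells. Of 8 immune cell markers, 5 were listed and 3 of them (Csf1r, Cd68 and Itgam) rose in each table, with a summed mean of 901 and 928; the defining markers Ptprc, Adgre1 and Lyz2 were listed in neither table. Of 4 endothelial markers, Pecam1 and Cdh5 rose in each table and Kdr fell in paused cells. The summed mean was 4901 and 6672, most of it from Pecam1 (3752 and 5581), with Cdh5 at 114 and 192. The part of these cell types in the falls of the Gbp genes was not tested.

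The genes whose changes lay nearest to those of Gbp2, by Euclidean distance over the control and paused log2 changes and among 10482 other genes with at least 5 ppm of the summed counts in both tables, were Sp5 (distance 0.79), T (1.28), Col1a1 (2.33), Lefty2 (2.56) and Lefty1 (2.66). Sp5 codes for a zinc-finger factor downstream of Wnt, T for brachyury, and Lefty1 and Lefty2 for inhibitors of Nodal. Sp5 changed by -3.97 (SE 0.37) and -4.54 (SE 0.44) in the authors' deposited tables of control and paused cells. Without the minimum on abundance, a choice made after seeing the data, the nearest of 19127 genes were Trim67 (0.060), Pcdh11x (0.077), Cav1 (0.37), H2-M2 (0.69) and Psmb8 (0.75), so the list depends on that minimum. The paralogs, given whatever their level, were at distances of 0.19 (Gbp2b), 1.23 (Gbp3) and 1.92 (Gbp7) from Gbp2. Among the 10482 genes the nearest to Trim30c was T, at a distance of 5.25, and without the minimum it was Serpinb8, at 4.86. With 2 values per gene this likeness is coarse, and it is given as a description.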

How the data were processed

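Poly(A) RNA of 24 libraries in 6 groups of 4 was measured, and samples were grouped by their titles. The submitters' processing notes name FastQC, Trim Galore, HISAT2, featureCounts and DESeq2, with no version, and the build mm10; annotation, strand setting and the libraries in each comparison are not given in the sources used here. Per the file headers, the authors deposited 2 DESeq2 results tables. In each, a mean normalized count over libraries is a signal value made by the authors. The deposited change and its standard error are on a log2 scale, and the deposited statistic is a score that equals change over standard error to within 1 percent for all genes with a p. The deposited p-value and adjusted p-value were used as they stand, and the adjusted values were within 1 percent of recomputed ones. All genes with a p in a table formed its background; the lowest means are 2.22 and 3.19.

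The difference between conditions took the quadrature sum of both standard errors as its own and a two-sided normal p, with Benjamini-Hochberg adjustment. Tested on simulated data built from the standard errors of 19134 genes, it recovered 70.0% of 200 differences of 2-fold, and 7.28% of its calls were false. Recovery was 97.8% for genes with an SE under 0.25, and so lower than 70.0% for the remaining genes. The differences of the members had SEs from 0.43 to 2.25. Promoter windows are from RefSeq (GRCm38.p6), found for all 9 members by symbol; coding bases were aligned globally with Biopython 1.88, and other steps used Python 3.11.15, numpy 2.4.6, scipy 1.17.1 and pandas 2.3.3. A planned comparison of proteins was not analysed here, and coding sequences took its place.

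The members and lists were chosen with earlier results of these data known. Named genes were the members, Smad2, at most 6 called genes per related list by size of change, all listed genes inside a cluster of members with the called flanking ones, and the 5 genes most like the most abundant member of each family. Genes named outside this rule (Gtf2b, Pkn2, Trim5, Trim12a, Trim34a, Trim34b, Irgm2, Igtp, Oas1a, Gbp6, Gbp10, the markers and the genes nearest to a member without the minimum) were picked with values in view. The alternatives were a stricter threshold, a 2-fold minimum, a minimum mean, equal summed counts, a scaled statistic and a test against 1.2-fold.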

Additional observations from a re-analysis of the deposited data

Results flagged for a closer look

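The difference between the paused and control changes of Trim30c was past the threshold used for all genes. That call was lost with an adjusted p under 0.01, with the scaled statistic and in the test against 1.2-fold. Both changes are among the values that chose Trim30c, so the difference is a description and no test. The authors' deposited tables gave Trim30c a change of -8.64 (SE 2.02) in control and -0.43 (SE 1.01) in paused cells, a paused value higher by 8.21 (SE 2.25). The mean was 1135 normalized counts for control and 3.19 for paused libraries, in tables that were normalized separately. The part of single libraries in this was not tested.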

How the results depend on the processing

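Gbp2 and Gbp2b kept their call in both conditions under all 6 alternatives, and no member changed direction where it was called. The alternatives reuse the changes that chose the members, so the calls kept are a description and nothing is read from them. The control call of 5 members fell to 3 (Gbp2, Gbp2b and Trim30c) with the minimum mean of 230 normalized counts. It fell to 3 (Gbp2, Gbp2b and Gbp3) when the statistic was scaled to match a standard normal at its median. The paused call of 4 fell to 2 with the minimum mean of 221, which leaves fewer genes in the test. The scaled statistic left 3 (Gbp2, Gbp2b and Gbp7). The minimum was set on a mean pooled over genotypes. Members that fall steeply can pass it through their WT libraries alone, so nothing is read from calls kept under it. The count of 1 member past the threshold for the difference, Trim30c, was lost with an adjusted p under 0.01, with the scaled statistic and in the test against 1.2-fold, which each left 0 members called; the same is true by construction without Trim30c (chosen after seeing the data). Of 29 related genes called in control cells, 11 were left by the 2-fold minimum, 11 by the minimum mean, 3 by the scaled statistic and 12 by the test against 1.2-fold; of 25 in paused cells, 10, 12, 3 and 14. Over all genes, the 8189 calls in control and 8504 in paused cells became 1380 and 1418 with the 2-fold minimum, 5569 and 5834 with the minimum mean, 293 and 450 with the scaled statistic and 2404 and 2426 in the test against 1.2-fold. The 275 calls of the difference became 102 with an adjusted p under 0.01, 28 with the 2-fold minimum, 35 with the scaled statistic and 4 against 1.2-fold, and rose to 320 of 10952 genes with the minimum mean and 295 with equal summed counts. Trim30c stayed called with the minimum mean, but it passed that filter through its control mean. The authors' deposited means were 1135 in control and 3.19 in paused cells, so nothing is read from this call. Equal summed counts corresponded to a shift of -0.06 and -0.04 and changed no call of a member, but the split of lower and higher calls went from 4331 and 3858 to 3105 and 4763 in control cells, from 4402 and 4102 to 3484 and 4731 in paused cells, and from 138 and 137 to 189 and 106 for the difference. In the 250 bases before the start alone, the counts of members with each motif were the same 7, 3 and 5 with any start counted. With the first start of each gene alone, they were 7, 3 and 4 in both windows. Windows of 100 bases, chosen after seeing the data, lowered the shared part of Trim30d to 9.75% and that of Gbp7 to 10.2%. They lowered that of Trim30a to 4.79%, of Gbp3 to 0.929% and of Gbp5 to 0.273%. For Gbp2, Gbp2b, Trim30b and Trim30c the shared part became 0%. No paired analysis was possible because the tables hold no value per library, and for the same reason no replicate was left out. Protein identity was not run. Smad2 lost its call with the 2-fold minimum in both conditions, and with the scaled statistic and the test against 1.2-fold in control cells.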
